A study of Mus musculus with 18 samples.

Results

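The surrogate light chain genes are Vpreb1, Vpreb2, Igll1 and Vpreb3, taken as the probes whose gene name in the scanner files was one of these symbols. They made up 4 of 25888 gene names and 8 of 43426 non-control probes on the array. Vpreb1 and Igll1 had 2 probes each, Vpreb2 had 1 and Vpreb3 had 3.

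RNA of mouse thymus cells was measured on 18 Agilent 1-colour whole-genome arrays, 1 sample per array. C57BL/6 mice had been injected with anti-DLL4, an antibody against a Notch ligand, or with an isotype control antibody, with thymi harvested after 2 weeks. There were 3 anti-DLL4 and 4 isotype samples of total thymocytes. DN cells, sorted as CD4-CD8-, gave 3 anti-DLL4 and 3 isotype samples. DN1 cells, the CD4-CD8-CD44+CD25- fraction, gave 3 anti-DLL4 and 2 isotype samples. The study describes 4 animals per antibody and 3 isotype thymocyte samples where the labels give 4. Which animal a sample came from is not given, so 1 animal may have served several populations, and p-values measure the spread between these arrays. The gate of DN and DN1 cells removes cells with CD4 or CD8 on their surface, and no label names a gate against B cells.

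The surrogate light chain stands in for a conventional immunoglobulin light chain in pro-B and early pre-B cells. VpreB, encoded in mice by Vpreb1 and Vpreb2, and lambda 5, encoded by Igll1, together pair with the immunoglobulin mu heavy chain and with the Cd79a and Cd79b signalling chains to form the pre-B cell receptor, which drives pre-B cell growth and then is shut off. VpreB3, the product of Vpreb3, binds newly made mu chains inside early B cells. In thymocytes the comparable checkpoint uses pre-T alpha, encoded by Ptcra, and Notch signalling through DLL4 directs progenitors that enter the thymus into the T lineage.

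The probe positions in the files are on the mm8 mouse build. Vpreb1 probe 1 lay at chr16:16782029-16782088 and Vpreb1 probe 2 at chr16:16782009-16782068, on the minus strand, overlapping by 40 bases. The Igll1 probes lay on the same strand at chr16:16774574-16774633 and chr16:16774350-16774409, and the nearest Vpreb1 and Igll1 probes were 7375 bases apart. Vpreb2 probe 1 lay 1112 kb from the Vpreb1 probes, at chr16:17894159-17894305 on the plus strand, and its 60 bases covered 147 bases of genome, so it crossed an intron. The Vpreb3 probes lay at chr10:75393014-75393073, chr10:75393118-75393177 and chr10:75393236-75393295 on the plus strand. The deposited accession list of Vpreb1 probe 2 also named a Vpreb2 transcript, so signal of that probe cannot be assigned to Vpreb1 alone. Whether Vpreb1 probe 1 or the Vpreb2 probe also matches the other gene was not checked by sequence. The probes below carry the measurements of Vpreb2, Igll1 and Vpreb3 and are given 5′ to 3′ as deposited.
Vpreb2 probe 1: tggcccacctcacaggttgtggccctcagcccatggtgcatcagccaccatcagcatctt
Igll1 probe 1: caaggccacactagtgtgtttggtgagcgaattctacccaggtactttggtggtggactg
Vpreb3 probe 1: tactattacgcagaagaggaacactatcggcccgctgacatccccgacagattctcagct
Vpreb3 probe 2: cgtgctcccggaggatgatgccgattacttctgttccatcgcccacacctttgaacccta

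The 250 bases upstream of each gene's start were read from RefSeq on build GRCm38.p6, which held all 4 genes. The windows of Vpreb1 at chr16:16869256-16869505, minus strand, and Vpreb2 at chr16:17980315-17980564, plus strand, are shown because these genes are near-copies. They shared an unbroken run of 91 identical bases, in capitals below, within a longer ungapped match of 153 of 156 bases, 98.1%, which runs past the Vpreb1 start and so beyond the Vpreb1 window shown. The longest identical run of the other gene pairs within the windows was 10 bases.
Vpreb1 upstream: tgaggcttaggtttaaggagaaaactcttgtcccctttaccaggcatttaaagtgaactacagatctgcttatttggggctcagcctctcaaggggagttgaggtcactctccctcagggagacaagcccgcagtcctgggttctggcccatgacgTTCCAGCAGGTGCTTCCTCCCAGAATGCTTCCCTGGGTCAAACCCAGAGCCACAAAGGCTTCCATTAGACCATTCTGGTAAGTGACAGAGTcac
Vpreb2 upstream: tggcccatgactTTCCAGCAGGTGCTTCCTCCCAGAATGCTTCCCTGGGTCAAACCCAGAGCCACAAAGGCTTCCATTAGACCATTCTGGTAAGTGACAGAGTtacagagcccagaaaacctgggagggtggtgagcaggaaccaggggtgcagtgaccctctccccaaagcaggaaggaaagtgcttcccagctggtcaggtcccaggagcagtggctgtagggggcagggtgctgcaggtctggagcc
The windows of Igll1 at chr16:16863986-16864235, minus strand, and Vpreb3 at chr10:75948050-75948299, plus strand, are shown for the motifs they held. Capitals mark the motif CAGGTG, a form of the E-box read here on the opposite strand, in the Igll1 window, and the octamer ATGCAAAT, likewise on the opposite strand, in the Vpreb3 window.
Igll1 upstream: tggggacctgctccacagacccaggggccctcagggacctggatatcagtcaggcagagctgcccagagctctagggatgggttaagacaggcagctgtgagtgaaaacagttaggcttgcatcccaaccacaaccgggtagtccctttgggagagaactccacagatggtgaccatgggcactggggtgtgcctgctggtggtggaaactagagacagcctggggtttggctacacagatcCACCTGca
Vpreb3 upstream: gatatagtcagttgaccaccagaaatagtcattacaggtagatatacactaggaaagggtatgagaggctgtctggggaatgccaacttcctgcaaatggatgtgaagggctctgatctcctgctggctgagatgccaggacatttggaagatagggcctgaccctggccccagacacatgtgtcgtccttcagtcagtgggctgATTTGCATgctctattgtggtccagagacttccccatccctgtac
Searched on both strands, CAGGTG stood 88 bases upstream of the start in Vpreb1, 232 in Vpreb2 and 8 in Igll1, and not in the Vpreb3 window. In Vpreb1 and Vpreb2 the motif lies at the same place in the shared run, which is at a different distance from each annotated start. CAGGTG was in 17.2% of 32841 RefSeq promoter windows of this length. The octamer, an element known from immunoglobulin promoters, stood 45 bases upstream in Vpreb3 and in 1.6% of all windows. The E-box in its general form CANNTG, which includes CAGGTG, was in all 4 windows and in 66.2% of all. The EBF consensus motif, the heptamer CTCATGA and TATAAA were in none of the 4 windows, against 0.78%, 2.22% and 12.4% of all windows.

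All but 2 of the 144 member spots were well above background, and 0 were saturated. The 2 dim spots were Igll1 probe 1 on isotype thymocyte array 2 and isotype DN array 3. The array's 75th percentile of intensity was between 260.2 and 4295.4 over the 18 arrays, and 59.9% to 84.0% of spots were well above background. Each value below is the log2 intensity minus that array's 75th percentile, so 0 means a signal at the 75th percentile. On this scale the brightest probe of Cd8b1, a chain of the CD8 coreceptor, was at 3.64 to 4.09 in anti-DLL4 DN cells, 6.82 to 7.14 in isotype DN cells, 7.0 to 9.25 in anti-DLL4 thymocytes and 7.65 to 9.95 in isotype thymocytes. The brightest probe of Cd44 was at 1.59 to 2.34 in anti-DLL4 DN1 cells and 2.4 to 3.07 in isotype DN1 cells, and it was at 1.66 to 2.09 in anti-DLL4 DN cells, -0.22 to 0.83 in isotype DN cells, 2.28 to 3.32 in anti-DLL4 thymocytes and -0.21 to 0.5 in isotype thymocytes. Cd8b1 was at 1.59 to 4.96 in anti-DLL4 DN1 cells and 6.35 to 6.59 in isotype DN1 cells, although the gate excludes surface CD8. The brightest probe of Il2ra, the gene of CD25, was at 0.02 to 0.49 in anti-DLL4 DN1 cells and -2.6 to -0.3 in isotype DN1 cells. It was at 0.63 to 1.08 in anti-DLL4 DN cells and 0.2 to 1.97 in isotype DN cells.

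In DN cells, 7 of the 8 probes, covering Vpreb1, Igll1 and Vpreb3, were higher after anti-DLL4 and passed the test, limma's moderated test with Benjamini-Hochberg adjustment over all probes at an adjusted p under 0.05. Across the array 3.72% of 34241 probes tested passed it, 2.33% as higher. The median difference of all tested probes was -0.65, and differences below are given relative to that median. The 8 member probes had a median relative difference of 7.11 on the log2 scale.

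Vpreb1 probe 1 read 7.31, 3.86 and 6.87 in the anti-DLL4 DN samples (replicates 1, 2 and 3), against -0.89, -0.13 and 0.77 in the isotype DN samples. All 3 anti-DLL4 arrays were above all 3 isotype arrays, with replicate 2 the lowest of the anti-DLL4 arrays. The relative difference was 6.74 ± 1.09 (SE), about 107-fold, with an adjusted p of 0.00586 in limma. The overlapping Vpreb1 probe 2 gave 6.89 ± 1.09 (adjusted p 0.00484).

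Igll1 probe 2 read 6.65, 3.81 and 6.64 in anti-DLL4 DN samples, against -1.12, -1.24 and -3.25 in isotype DN samples. Again no array of one group fell within the range of the other. The relative difference was 8.21 ± 1.5 (SE, adjusted p 0.0105 in limma). Igll1 probe 1 read 5.25, 1.87 and 5.04 in anti-DLL4 DN samples and -4.17, -3.59 and -7.56 in isotype DN samples, and its relative difference of 9.8 ± 1.68 (adjusted p 0.00671) was the largest of the 8. Only 2 of its 3 isotype arrays were well above background, so its size rests in part on a dim spot.

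Vpreb3 probe 2 read 7.02, 5.63 and 7.39 in anti-DLL4 DN samples, against 1.37, 0.34 and -2.23 in isotype DN samples. The isotype samples were spread over a wider range than the anti-DLL4 samples and did not reach them. The relative differences of Vpreb3 probes 1, 2 and 3 were 6.9 ± 0.97, 7.49 ± 0.98 and 7.31 ± 1.04 (SE), with adjusted p-values of 0.00231, 0.00128 and 0.00231 in limma.

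Vpreb2 was the member that did not pass. Its probe read 0.95, -1.93 and 0.52 in anti-DLL4 DN samples and -1.76, -2.0 and -3.99 in isotype DN samples, and anti-DLL4 replicate 2 lay within the isotype range. The relative difference was 3.08 ± 1.05 (SE, 95% interval 0.85 to 5.3, adjusted p 0.146 in limma). For the 7 other probes the arrays of the 2 antibodies did not overlap, with anti-DLL4 higher, as for 9.7% of all tested probes.

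**Figure D1:**
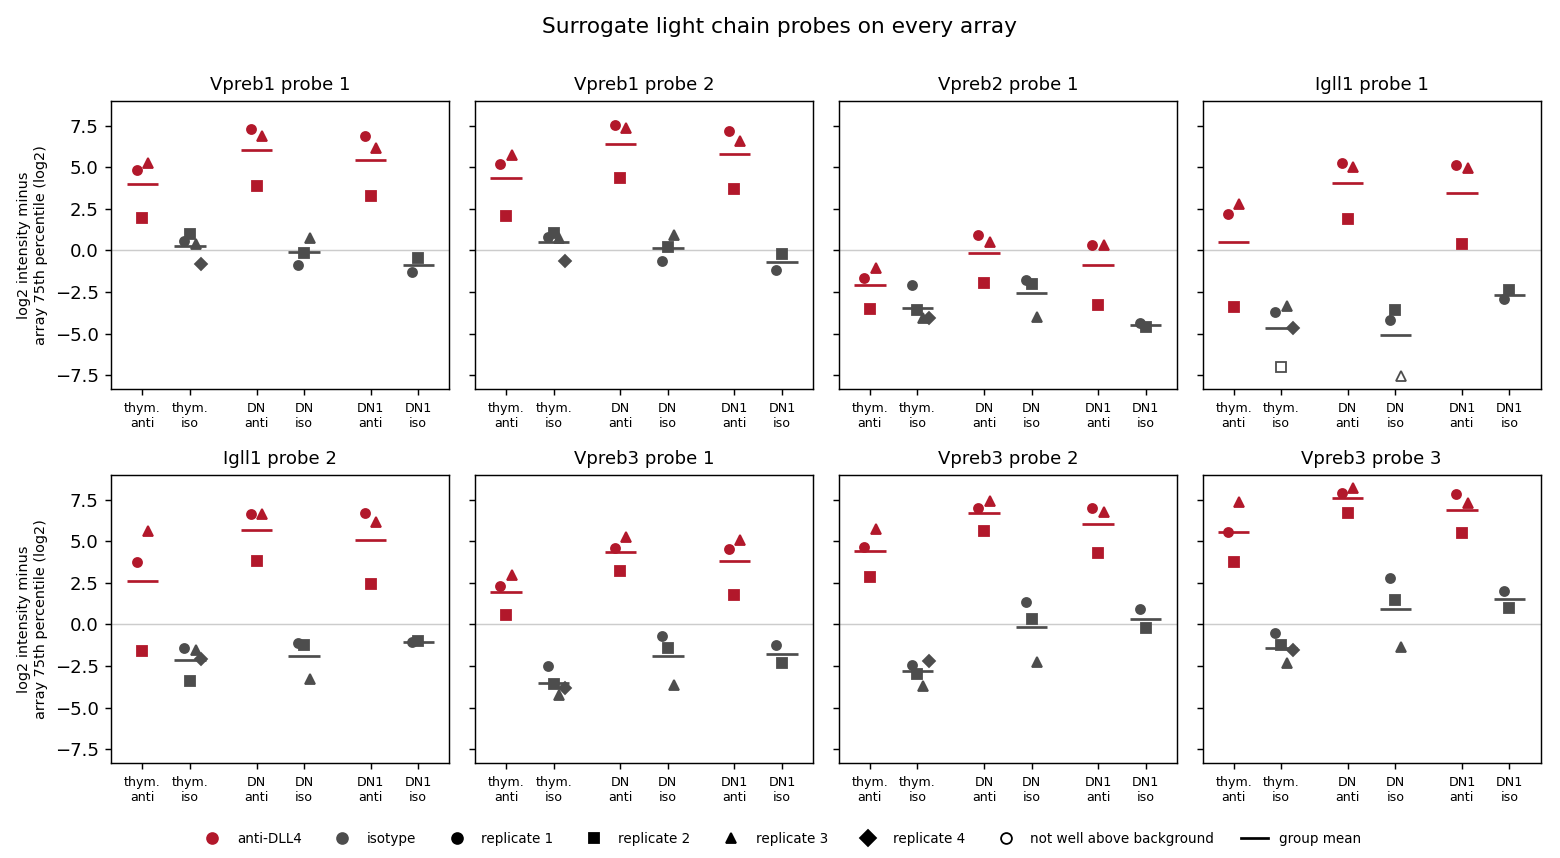
Log2 intensity minus the array's 75th percentile (y axis) of each of the 8 probes on all 18 arrays, with total thymocytes (thym.), DN and DN1 cells side by side, anti-DLL4 (anti, red) left of isotype (iso, grey), symbols for replicate numbers and bars for group means. In DN cells the anti-DLL4 arrays of 7 probes lie above every isotype array, and in all 3 populations replicate 2 is the lowest anti-DLL4 array of every probe.

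In total thymocytes, which were not sorted, Vpreb3 was higher after anti-DLL4 by all 3 of its probes, and no probe of the other members passed the test. Of 34897 probes tested, 1.16% passed, 0.926% as higher, and the median difference of all was -0.42. Vpreb3 probe 2 read 4.68, 2.85 and 5.73 in anti-DLL4 thymocyte samples, against -2.44, -2.97, -3.68 and -2.21 in the 4 isotype samples. Its arrays were far apart by antibody, and all isotype arrays were below the 75th percentile. The relative differences of Vpreb3 probes 1, 2 and 3 were 5.9 ± 0.91, 7.67 ± 0.92 and 7.39 ± 0.97 (SE), with adjusted p-values of 0.00667, 0.00132 and 0.002 in limma.

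Vpreb1 probe 1 read 4.84, 1.93 and 5.28 in anti-DLL4 thymocytes and 0.56, 0.99, 0.4 and -0.81 in isotype thymocytes. The groups did not overlap, as was so for 5 of the 8 member probes and, with anti-DLL4 higher, for 4.69% of all tested probes. The relative difference was 4.15 ± 1.02 (SE, 95% interval 1.99 to 6.32, adjusted p 0.0897 in limma). Igll1 probe 2 read 3.76, -1.57 and 5.61 in anti-DLL4 thymocytes and -1.44, -3.4, -1.55 and -2.08 in isotype thymocytes. Replicate 2 lay among the isotype arrays while replicates 1 and 3 stood above them, and the relative difference of 5.14 ± 1.4 (adjusted p 0.119) did not pass. Vpreb2 read -1.67, -3.53 and -1.06 in anti-DLL4 thymocytes and -2.07, -3.58, -4.08 and -4.05 in isotype thymocytes, with a relative difference of 1.78 ± 0.98 (95% interval -0.3 to 3.86, adjusted p 0.547).

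In DN1 cells, the CD44+CD25- fraction that holds the earliest thymic progenitors, all 8 probes lay higher on every anti-DLL4 array than on both isotype arrays, but none passed the adjusted threshold. Non-overlap with anti-DLL4 higher was found for 8.63% of 36640 tested probes, and 0.109% of them passed the test, 0.0437% as higher. The relative differences were 3.62 to 6.51 with a median of 5.93, their limma adjusted p-values 0.0522 to 0.5, and 8 of 8 had an unadjusted p under 0.05. An unadjusted p under 0.05 was found for 1912 of the 36640 tested probes. The median difference of all tested probes was -0.03.

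Vpreb1 probe 1 read 6.88, 3.29 and 6.14 in anti-DLL4 DN1 samples and -1.28 and -0.45 in isotype DN1 samples. Igll1 probe 2 read 6.67, 2.44 and 6.16 in anti-DLL4 DN1 samples and -1.08 and -0.97 in isotype DN1 samples. Vpreb3 probe 2 read 7.01, 4.29 and 6.78 in anti-DLL4 DN1 samples and 0.94 and -0.24 in isotype DN1 samples. For each of these genes the lowest anti-DLL4 array was well clear of the highest isotype array. Vpreb2 read 0.31, -3.25 and 0.32 in anti-DLL4 DN1 samples and -4.33 and -4.59 in isotype DN1 samples, where replicate 2 came close to the isotype arrays. The relative differences were 6.33 ± 1.22 for Vpreb1 probe 1 (95% interval 3.75 to 8.92), 6.15 ± 1.68 for Igll1 probe 2 (2.59 to 9.71), 5.71 ± 1.1 for Vpreb3 probe 2 (3.37 to 8.05) and 3.62 ± 1.17 for Vpreb2 (1.13 to 6.11).

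**Figure D2:**
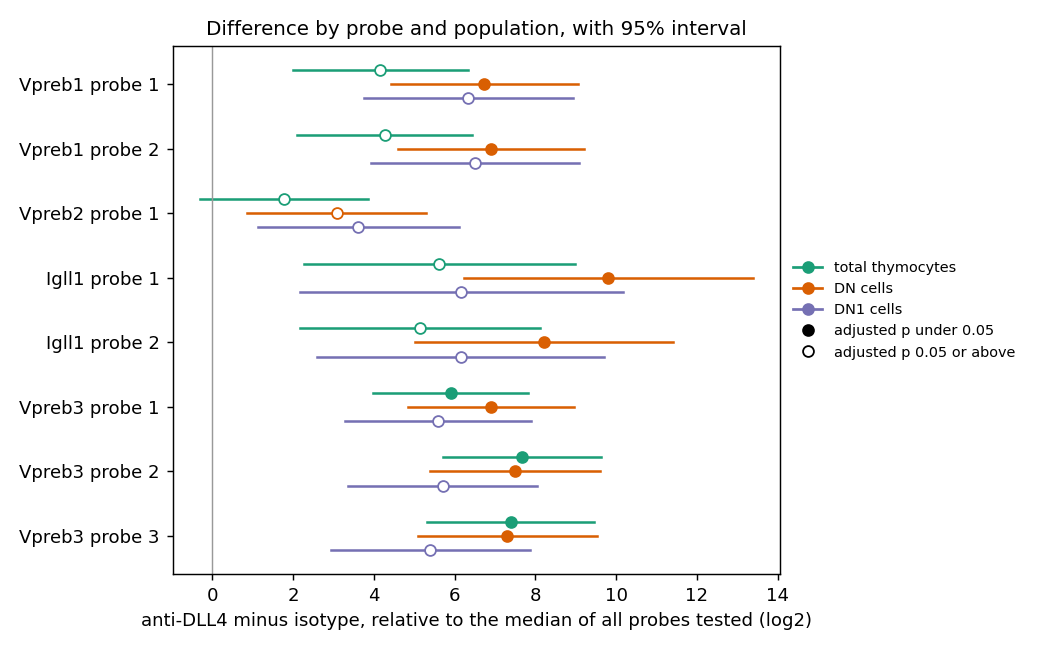
Difference between anti-DLL4 and isotype arrays for each probe in each population, in log2 relative to the median of all tested probes (x axis), with 95% intervals as lines and filled points where the adjusted p was under 0.05. The intervals of a probe overlap between populations, and the Vpreb2 interval in thymocytes, -0.3 to 3.86, is the one that reaches 0.

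A call in one population and none in another did not amount to a difference between populations. Tested directly, 0 of 8 probes passed for the DN effect minus the thymocyte effect, the DN1 effect minus the thymocyte effect or the DN1 effect minus the DN effect, with limma adjusted p-values of at least 0.601 and 0 probes at an unadjusted p under 0.05. Over all tested probes 0.0107%, 0.0894% and 0.137% passed in these contrasts. An unadjusted p under 0.05 was found for 3167 of 37407, 2599 of 38050 and 4424 of 38051 tested probes. The intervals were wide. For Vpreb1 probe 1 the DN1 effect minus the DN effect was -0.4 (95% interval -3.87 to 3.06), and for Igll1 probe 1 it was -3.64 (-9.01 to 1.72).

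By group mean, all 8 probes were ordered with anti-DLL4 DN cells highest, anti-DLL4 DN1 cells next and anti-DLL4 thymocytes after them. Vpreb1 probe 1 averaged 6.01 ± 1.88 in anti-DLL4 DN cells, 5.44 ± 1.89 in anti-DLL4 DN1 cells and 4.02 ± 1.82 in anti-DLL4 thymocytes (SD, n = 3 each), and the ranges of neighbouring groups overlapped for every probe. Between anti-DLL4 DN and anti-DLL4 thymocyte arrays 0 of 8 probes passed in limma, 2 had an unadjusted p under 0.05, and 0.28% of all tested probes passed. Of all 33525 probes tested there, 2486 had an unadjusted p under 0.05. Between anti-DLL4 DN1 and anti-DLL4 DN arrays 0 of 8 passed, 0 had an unadjusted p under 0.05, and 0.0% of all tested probes passed. Of all 35160 probes tested there, 1523 had an unadjusted p under 0.05.

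Among the isotype samples the order differed by gene. Vpreb3 probe 3 averaged 1.51 ± 0.71 in isotype DN1 cells (SD, n = 2), 0.94 ± 2.12 in isotype DN cells (n = 3) and -1.41 ± 0.76 in isotype thymocytes (n = 4). Vpreb1 probe 1 averaged -0.86 ± 0.59 in isotype DN1 cells, -0.08 ± 0.83 in isotype DN cells and 0.28 ± 0.77 in isotype thymocytes, with overlapping neighbours. None of the 8 probes passed between isotype DN and isotype thymocyte arrays in limma, where 1.13% of all probes passed and 2 members, both Vpreb3 probes, had an unadjusted p under 0.05. So did 7102 of all 35859 probes tested there. None passed between isotype DN1 and isotype DN arrays, where 1.1% of all probes passed and 0 members had an unadjusted p under 0.05. Of all 36040 probes tested there, 6834 had an unadjusted p under 0.05.

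Anti-DLL4 replicate 2 was the lowest anti-DLL4 array of its population for 8 of 8 probes in thymocytes, in DN cells and in DN1 cells. The gap to the next array had a median of 2.39 in thymocytes, 2.64 in DN cells and 2.85 in DN1 cells, and was largest for Igll1 probe 1 in thymocytes at 5.62. Set against the isotype mean of its population and relative to all tested probes, Igll1 probe 2 was 6.58, 1.19 and 7.66 higher on anti-DLL4 thymocyte arrays 1, 2 and 3. The median of the mature B-cell genes described below was 3.64, 3.34 and 3.25 on the same arrays, so replicate 2 was not the lowest for those genes. The pro-B and pre-B stage genes, described below too, had medians of 0.4, -0.34 and 0.52 in thymocytes and 1.73, -0.07 and 0.89 in DN cells, and the receptor partners 2.44, 2.07 and 2.44 in thymocytes and 4.12, 3.54 and 4.45 in DN cells, with replicate 2 lowest in each. In DN1 cells replicate 2 was the lowest for neither list. In DN cells the corresponding values were 9.14, 6.41 and 9.0 for Igll1 probe 2 and 5.1, 5.21 and 4.82 for the mature B-cell genes. The B-cell marker genes, a separate list described below, did have their lowest median on replicate 2 in every population. Their thymocyte medians on arrays 1, 2 and 3 were 4.26, 3.36 and 3.58. The DN medians of these markers were 4.57, 4.33 and 4.56. Their DN1 medians were 0.42, 0.33 and 1.09. B-cell lists thus differed in whether replicate 2 was lowest. Labels do not say whether arrays of one replicate number share an animal. Deviations from the group means had a median correlation of 0.07 between same-numbered arrays of 1 antibody in different populations (7 of 16 pairs over 0.1) and of -0.05 between other numbers (7 of 37). With the 3 replicate 2 arrays left out, a choice made after seeing these values, 7 probes of 3 genes passed in thymocytes, 7 of 3 genes in DN cells and 7 of 4 genes in DN1 cells. Over all probes tested in DN1 cells, 108 passed with that choice, against 40 with all arrays. The matching counts over all probes in thymocytes and DN cells are not given here.

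**Figure D3:**
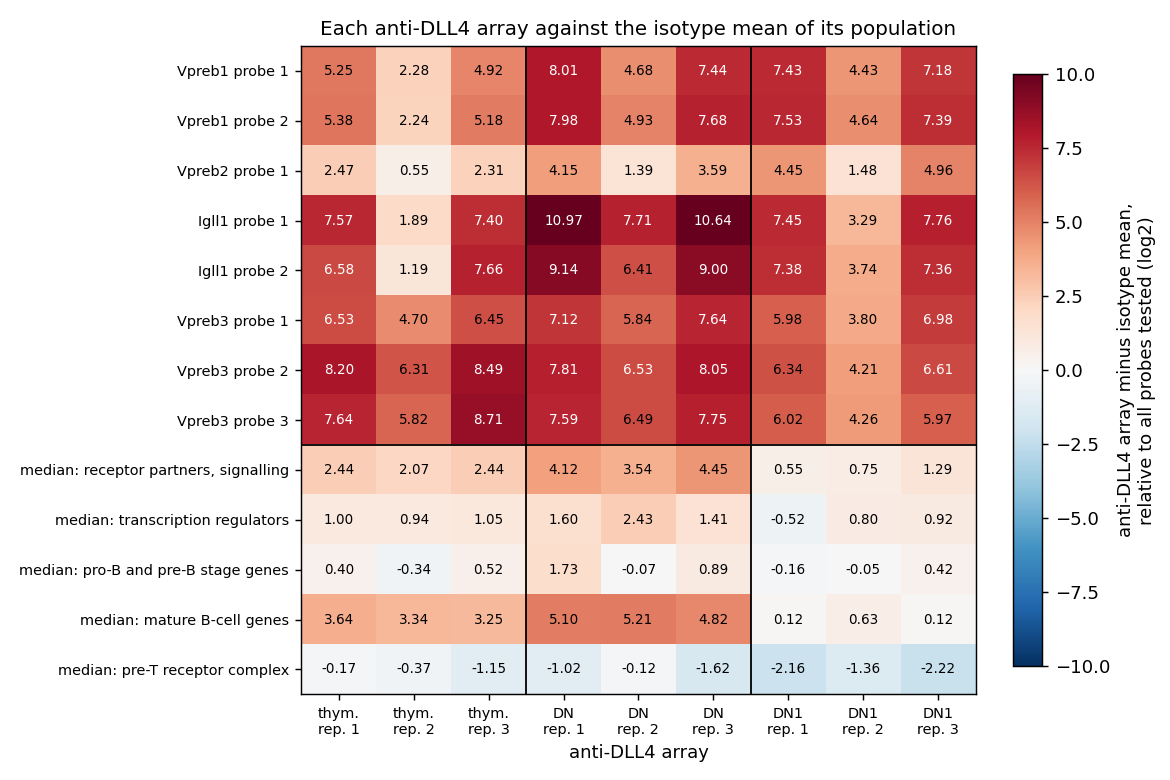
Each anti-DLL4 array (columns, 3 per population) minus the isotype mean of its population, in log2 relative to all tested probes, for the 8 probes and for the median of each of 5 related gene lists (rows). Igll1 probe 2 is at 1.19 on thymocyte array 2 beside 6.58 and 7.66 on arrays 1 and 3, whereas the mature B-cell median is between 3.25 and 3.64 on all 3.

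Slides held arrays of both antibodies for some samples, and within each such slide the difference relative to the median of all probes was above 0 for all 8 probes. Before that median was subtracted, Vpreb2 on slide 3 in DN cells was at -1.93 on the anti-DLL4 array and -1.76 on the isotype array, a relative difference of 0.76. The median relative difference of the 8 probes was 6.16, 3.48 and 6.31 within slides 1, 2 and 4 in thymocytes, 5.44 within slide 3 in DN cells, and 3.76 and 7.02 within slides 3 and 5 in DN1 cells. With slide as a fixed block, the 2 Vpreb1 probes still passed in DN cells (5.58, adjusted p 0.042, and 5.74, adjusted p 0.04), while the Igll1 probes, at 8.14 and 6.69, and the Vpreb3 probes, at 6.18, 7.01 and 6.45, had adjusted p-values of 0.0515 to 0.0692. The 75th percentile of the arrays was 741.3 to 1076.8 in anti-DLL4 DN samples and 260.2 to 675.5 in isotype DN samples. With its log2 as a covariate the relative differences in DN cells were 7.15 for Vpreb1 probe 1, 9.04 for Igll1 probe 2 and 7.99 for Vpreb3 probe 2.

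The genes that work with the surrogate light chain in the pre-B receptor, its signalling chains and kinases, were higher in DN cells together with it. Of 22 probes of 12 such genes, 13 rose, of 10 genes, and 0 fell, and their median relative difference was 4.03. Lyn, a Src family kinase, had relative differences of 5.3, 6.78 and 6.65 by its 3 probes (adjusted p 0.00022, 0.000186 and 0.000114). The adaptor Blnk averaged 7.75 ± 0.49 in anti-DLL4 DN cells and 2.28 ± 0.34 in isotype DN cells (SD, n = 3 each), a relative difference of 6.12 (adjusted p 0.000907), and Btk, a kinase of the same pathway, had 5.45 (adjusted p 0.00944). Of the signalling chain Cd79a, 1 of 2 probes passed, with none of the isotype DN arrays well above background and a signal at least 40.3-fold higher in anti-DLL4 DN cells (adjusted p 0.000186). The mu heavy chain gene Ighm rose by 2 of its 3 probes, at 4.6 and 3.41 (adjusted p 0.00271 and 0.0239), and the kinase Syk by 4.82 (adjusted p 0.000952).

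In thymocytes 6 of the 22 probes rose, among them probes of Btk, Cd79a and Lyn, with a median of 2.29. In DN1 cells 0 of 22 passed in limma, the lowest adjusted p was 0.718 and the median was 0.77. Blnk averaged 7.1 ± 0.42 in anti-DLL4 DN1 cells and 6.26 ± 0.5 in isotype DN1 cells (SD, n = 3 and 2). The Blnk probe was at 6.26 in isotype DN1 cells and 2.28 in isotype DN cells, while Vpreb1 probe 1 averaged -0.86 in isotype DN1 cells.

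Transcription factors known to act on early B-cell genes rose in part. In DN cells 11 of 39 probes of 16 genes rose, 0 fell, and the median was 1.76. Pax5, which fixes B-lineage commitment, averaged 1.49 ± 0.59 in anti-DLL4 DN cells and -5.79 ± 1.76 in isotype DN cells by 1 probe, a relative difference of 7.92 (adjusted p 0.000222) for which 1 of 3 isotype arrays was well above background, while its other probe, dim in both groups, did not pass (-1.5, adjusted p 0.251). Ebf1, which with E2A opens the B-cell programme, had 4.37 (adjusted p 0.00675), Irf4 had 7.03 and 7.19 (adjusted p 0.000114 and 0.000156) and Spib had 5.12 and 5.62 (adjusted p 0.00195 and 0.00105). Irf8, which with Irf4 limits pre-B receptor signalling and surrogate light chain expression, rose by its 3 probes, at 5.19, 4.88 and 4.41 (adjusted p 0.00271, 0.00112 and 0.00052). Probes of Tcf3, the gene of E2A, Sox4, Ikzf1, Ikzf3 and Tcf12 did not pass. In thymocytes 6 of 41 probes rose, of Ebf1, Irf4, Pax5 and Spib, and in DN1 cells 0 of 43 passed, with a lowest adjusted p of 0.12 in limma. That lowest value was of an Ebf1 probe that was lower after anti-DLL4, at -4.92, and well above background on 1 of 3 anti-DLL4 arrays. The other Ebf1 probe was at 1.85 in DN1 cells (adjusted p 0.815).

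Genes used to mark the pro-B and pre-B stages were mixed. Of 36 probes of 14 genes, 3 rose in thymocytes and 3 in DN cells, and 1 of 38 rose in DN1 cells, with 0 falling in any population and medians of 0.19, 1.06 and -0.26. Cecr2, a chromatin remodelling factor, rose in all 3 populations by 1 of its 3 probes. The relative difference was 9.91 in DN cells (adjusted p 0.000686) and 8.62 in DN1 cells (adjusted p 0.0289), sizes that rest on dim spots, since 1 of 3 isotype DN arrays and 1 of 2 isotype DN1 arrays were well above background. In thymocytes, where no isotype array was well above background, the signal was at least 158-fold higher (adjusted p 0.00169). Cplx2, a complexin, rose by 9.63 in DN cells and 7.07 in thymocytes by 1 probe (adjusted p 0.00211 and 0.0197 in limma). That probe was at 5.94 in DN1 cells (adjusted p 0.257). It was well above background on 2 of 3 isotype DN arrays and 2 of 4 isotype thymocyte arrays, so these sizes rest in part on dim spots. The other Cplx2 probes passed in no population, and were at 1.57 and -0.33 in DN cells and 0.37 and 0.01 in thymocytes. Il7r, the receptor for the growth factor of early lymphocytes, rose by 2.74 in DN cells and 2.64 in thymocytes by 1 probe (adjusted p 0.0239 and 0.0245). Rag1, Rag2 and Dntt, which cut and extend antigen receptor genes in both lymphocyte lineages, did not pass in any population, nor did Arpp21.

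Genes of mature B cells had a median of 5.22 in DN cells, where 15 of 19 probes rose and 0 fell, and of 3.35 in thymocytes, where 10 rose and 0 fell. Fcrla rose by 6.65 in DN cells and 4.59 in thymocytes (adjusted p 0.000114 and 0.00132), and Tnfrsf13c, the receptor for the survival factor BAFF, by 5.71 and 4.94 (adjusted p 0.000341 and 0.00132). Ms4a1, which encodes CD20, rose by 5.22 and 4.1 in DN cells by its 2 probes (adjusted p 0.00232 and 0.0133). In DN1 cells 0 of 19 passed in limma, all adjusted p-values were 1.0, and the median was 0.24. Cxcr5, the follicle-homing receptor, averaged 4.31 ± 1.02 in anti-DLL4 DN1 cells and 4.66 ± 0.8 in isotype DN1 cells (SD, n = 3 and 2). Here the difference between populations was itself tested, and 4 of 19 probes passed as lower for the DN1 effect minus the DN effect, 2 of Cxcr5 and 1 each of Fcrla and Faim3, as did 1 Lyn probe among the 22 receptor partner probes, where 0.137% of all tested probes passed. No probe of the array passed in this contrast with normexp background, slide as a fixed block or the replicate block, or without anti-DLL4 DN1 replicate 1, anti-DLL4 DN replicate 1 or 2, or isotype DN replicate 2.

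The pre-T receptor complex, the counterpart in T-lineage cells, had medians below 0, at -0.69 in thymocytes, -0.95 in DN cells and -1.91 in DN1 cells. Ptcra averaged 0.2 ± 2.01 in anti-DLL4 DN cells and 3.64 ± 0.68 in isotype DN cells (SD, n = 3 each) and fell by 2.78 on the relative scale (adjusted p 0.0456), the 1 probe of 13 that passed in any population. That call was fragile. No probe of the complex passed in DN cells without a filter on dim probes, with slide as a fixed block, the replicate block within population or array strength as a covariate, on only the arrays compared or on the authors' table. Nor did any pass without anti-DLL4 DN replicate 1 or 3, isotype DN replicate 2, anti-DLL4 thymocyte replicate 1, any 1 of the isotype thymocyte arrays or either isotype DN1 array. Cd3g, Cd247 and Lat did not pass.

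**Figure D4:**
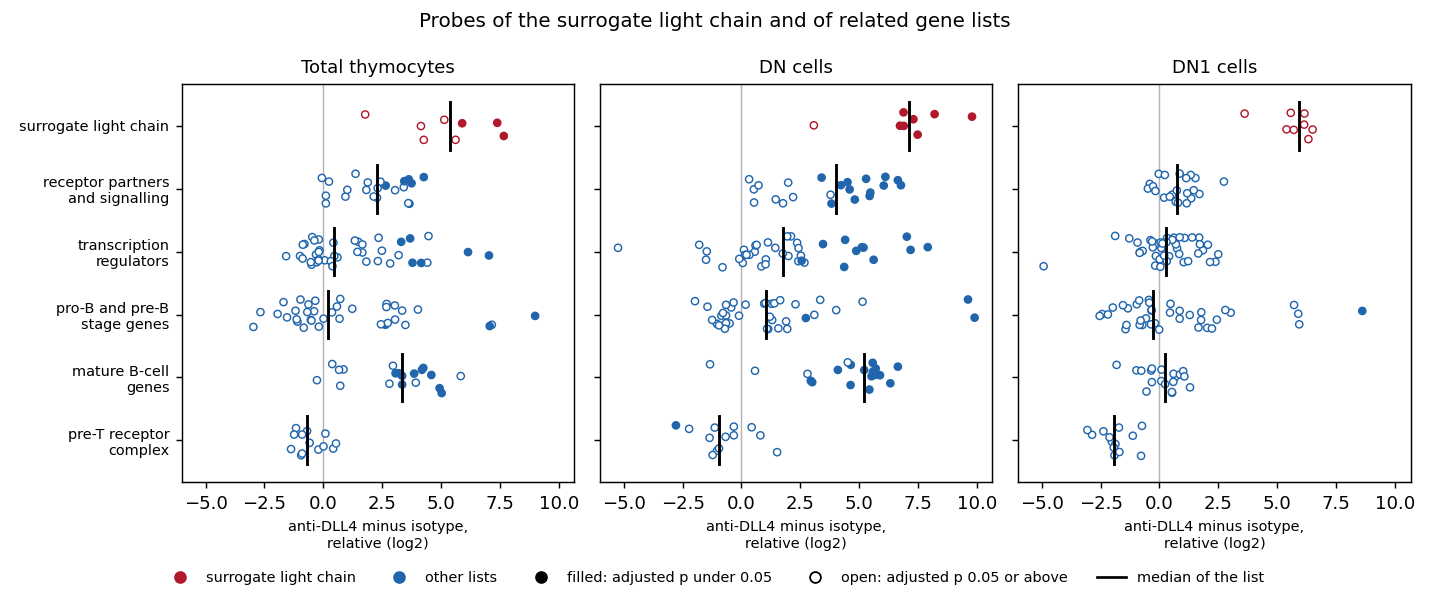
Difference between anti-DLL4 and isotype arrays, in log2 relative to all tested probes (x axis), of every tested probe of the surrogate light chain and of 5 gene lists in each population, with vertical bars at the medians and filled points where the adjusted p was under 0.05. In DN1 cells the surrogate light chain median is 5.93 and the mature B-cell median 0.24, whereas in DN cells both sets lie to the right at 7.11 and 5.22.

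The markers of B cells moved with these results. The summed linear signal of 12 probes of 7 B-cell marker genes, in multiples of the array's 75th percentile, was 478 to 567 in anti-DLL4 DN cells and 34.1 to 42.4 in isotype DN cells. It was 70.0 to 254 in anti-DLL4 thymocytes and 21.3 to 35.7 in isotype thymocytes. In DN1 cells the sums overlapped, at 298 to 454 in anti-DLL4 and 182 to 332 in isotype samples. Of the marker probes, 8 of 11 rose in DN cells, 7 of 11 in thymocytes and 0 of 12 in DN1 cells. Their part in the differences of the surrogate light chain genes was not tested, and in these bulk samples more B-lineage cells and more RNA per cell cannot be told apart. The sums of 10 T-cell marker probes were 74.6 to 213 in anti-DLL4 DN cells and 333 to 604 in isotype DN cells, and 29.9 to 68.3 in anti-DLL4 DN1 cells and 173 to 270 in isotype DN1 cells.

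Probes called higher among other marker lists in DN cells were 6 of 13 for plasmacytoid dendritic cells, with 2 lower, 3 of 11 for conventional dendritic cells, 3 of 10 for NK cells and 3 of 11 for monocytes and macrophages. Those of plasmacytoid dendritic cells included all Irf8 and Spib probes, which were also counted among the transcription factors above. None passed for granulocytes, erythroid cells or thymic epithelium there, where the lowest adjusted p in limma was 0.301, 0.0516 and 0.0837. In thymocytes 5 of 10 NK-cell probes rose, with sums of 235 to 500 in anti-DLL4 and 45.2 to 124 in isotype samples, as did 3 of 14 for plasmacytoid and 3 of 14 for conventional dendritic cells and 1 of 12 for monocytes and macrophages. There 2 of 9 erythroid probes rose, with sums of 368 to 2190 in anti-DLL4 and 198 to 650 in isotype samples. The plasmacytoid probes that rose in thymocytes included those of Spib. In DN1 cells no probe of these lists rose, and 1 of 14 plasmacytoid probes fell (adjusted p 0.00833 in limma). There the anti-DLL4 and isotype sums were 60.3 to 123 and 164 to 178 for NK cells, 44.3 to 60.4 and 100 to 139 for monocytes and macrophages, and 0.754 to 9.91 and 13.9 to 89.3 for granulocytes. The sums of the other lists named here overlapped in DN1 cells.

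Over the 18 arrays the member probes had correlations with each other of 0.80 to 1.0, lowest between Vpreb2 and Vpreb3. Among 37318 probes, the pattern of Vpreb1 probe 1 was most like that of Smtnl2 (Pearson r 0.97), Enpep (0.95) and Pde2a (0.95), the pattern of Igll1 probe 1 most like Cplx2 (0.97) and Myl4 (0.94), and that of Vpreb3 probe 1 most like Myl4 (0.98) and Cplx2 (0.96). The probe most like Vpreb2 was of Crhbp (0.93). These values describe arrays that share the antibody groups and the scaling, and carry no test. Cplx2 is also among the pro-B and pre-B stage genes above, a list chosen with earlier results of these data known. Its 2 mentions are therefore not separate evidence.

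In the RefSeq gene order, Igll1 and Vpreb1 are neighbours. On the other side of Vpreb1, the topoisomerase gene Top3b had relative differences of -0.58 in thymocytes, 0.67 in DN cells and 0.54 in DN1 cells (adjusted p 0.442, 0.984 and 1.0). Dgcr6, beside Vpreb2, had -1.26, -0.27 and 0.53 (adjusted p 0.169, 0.31 and 1.0). The other protein-coding neighbour, Gm867 beside Vpreb3, had no probe.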

How the data were processed

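RNA from 18 samples was amplified in 2 rounds and labelled with Cy3, per the labels' protocols. Per the file headers, the deposited spot intensity came from Agilent's scanner software Feature Extraction, version 9.5.3.1, with spatial and multiplicative detrending within the array on, surrogate values on and background correction off. The submitters' processing notes give its version as 9.5. The other deposited columns used were raw mean and background intensity and flags for control, dim, saturated and outlier spots. The authors' deposited table for the series holds a ratio per probe and array for 43225 probes, with scale, centring and direction unstated. Its column medians were 0.639 to 1.423. Set against the scanner values after centring each probe, its log2 values lay within 0.05 for 69.7% to 70.7% of probes per array and ran the same way (Pearson r 0.833 to 0.956). What it was divided by stays unknown, and it served as an alternative only.

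Here each array's 75th percentile, taken over its 43537 non-control spots, was subtracted on the log2 scale from the processed intensity. Outlier spots were then left out, and spots of a probe were averaged. A probe was tested where 2 or more arrays in the comparison had it well above background, using limma 3.58.1 in R 4.3.3, in 1 fit of all 6 groups, with Benjamini-Hochberg adjustment over all probes tested. The script was tested on simulated data with known changes. P-values test the difference itself. Differences and 95% intervals are printed minus the median of all tested probes. A lower bound of fold is used where no array of a group was well above background, from the lowest signal well above background. No depth can be given for arrays, whose number limits the precision. Probes of the gene lists were named through RefSeq accessions (26215 probes of the array), symbols (7270) or synonyms (3073), and 6868 kept the file's name. Gene lists were 5 pathway lists and 9 marker lists, which share genes such as Pax5 and Ms4a1. The genes named from a pathway list are the 4 with the smallest adjusted p in DN cells plus those called in thymocytes or DN1 cells, at most 6 a list, of which 1 is not reported here. Ighm, Syk, Tcf3, Sox4, Ikzf1, Ikzf3, Tcf12, Rag1, Rag2 and Dntt were named in addition, after their values were seen. Likeness was Pearson's r over all arrays for probes well above background on at least 3 arrays. Members and lists were chosen with earlier results of these data known. Alternatives changed the normalization, background, filter, slide, pairing, weights, covariate, source of values and arrays.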

Additional observations from a re-analysis of the deposited data

How the results depend on the processing

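In the 3 antibody comparisons, all 792 probe results under alternatives kept a relative difference above 0, and 738 stayed on the same side of the adjusted threshold, with 9 losing and 45 gaining the call. Counts of member genes with a called probe are given next. In total thymocytes it was 1 at the reported settings, 2 with a variance trend and robust estimation, 3 without the anti-DLL4 replicate 2 arrays of all populations, and 1 to 3 leaving out 1 array at a time, with 3 without anti-DLL4 thymocyte replicate 2. In DN cells it was 3 (7 probes), 1 with slide as a fixed block (2 probes) and 3 to 3 leaving out 1 array. In DN1 cells it was 0 (0 probes), 2 with quantile normalization, array weights, array strength as a covariate or a variance trend and robust estimation, 4 without the replicate 2 arrays, and 0 to 2 leaving out 1 array. Calls in DN1 cells appeared on leaving out anti-DLL4 thymocyte replicate 2 or 3, anti-DLL4 DN1 replicate 2, anti-DLL4 DN replicate 2 or isotype DN replicate 3. The 4 of these from other populations enter the DN1 comparison only through the fit that all groups share. Between isotype DN and isotype thymocyte arrays it was 0, and 0 to 1 leaving out 1 array, with 1 (2 probes) without isotype DN replicate 3. In the other contrasts it stayed at 0 under the alternatives run. The cause of a change was not tested.

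Replicate numbers were not taken to pair the samples: correlations of deviations were -0.225 to 0.268 for same-numbered arrays of the 2 antibodies in a population (1 of 8 above 0.1) and -0.189 to 0.353 for same-numbered arrays of 1 antibody in different populations (7 of 16 above 0.1, against 7 of 37 for other numbers). With the replicate block within population, 1 thymocyte probe passed in place of 3, with Vpreb3 probe 1 at 5.87 (adjusted p 0.0683) and Vpreb3 probe 3 at 7.42 (adjusted p 0.0509), and 7 DN probes and 0 DN1 probes. No such block could be fitted between populations, and a block over all populations changed no count of members.

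Counts over all probes moved more. They ranged from 68 to 2882 in thymocytes (404 reported) and 404 to 18550 in DN cells (1273 reported), both lowest with the replicate block and highest with array weights. In DN1 cells they ranged from 0 to 108 (40 reported), highest without the replicate 2 arrays of all populations. They were 0 to 10, 0 to 60 and 0 to 172 for the DN minus thymocyte, DN1 minus thymocyte and DN1 minus DN effects (4, 34 and 52 reported). Between populations they were 6 to 101 for anti-DLL4 DN against thymocytes (94), 0 to 5 for anti-DLL4 DN1 against DN (0), 4 to 1761 for isotype DN against thymocytes (404) and 77 to 919 for isotype DN1 against DN (397). Leaving out 1 array gave 165 to 521 in thymocytes, 509 to 7983 in DN cells, 0 to 64 in DN1 cells, 0 to 115, 1 to 56 and 0 to 707 for those 3 differences between effects, and 23 to 111, 0 to 4, 87 to 3793 and 1 to 1697 for those 4 population contrasts. Probes called per list ranged from 0 to 10 and 9 to 16 for receptor partners in thymocytes and DN cells, 2 to 12 and 8 to 23 for regulators, 1 to 10 and 2 to 20 for stage genes, 2 to 14 and 10 to 18 for mature B-cell genes, and 0 to 2 and 0 to 9 for the pre-T complex. In DN1 cells receptor partners, regulators and mature B-cell genes stayed at 0, apart from 1 regulator probe at most when 1 array was left out, and stage genes ranged from 0 to 3. Signal over background limited Igll1 probe 1, dim on 2 isotype arrays.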
